A study of Mus musculus with 5 samples.

Results

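The imprinted genes Nnat, Peg10, Mest, Snrpn and Impact were examined for m6A in mouse embryonic stem cells (mESCs). Their members are the positions of the deposited tables that fall on an exon of one of these genes, on the strand of the call (mm10, GENCODE M21). There were 952 such positions among 193656 exonic positions of the Mettl5 dataset, of which 193 were on Nnat, 132 on Peg10 and 627 on Impact. In the METTL3 dataset there were 425 among 468161, all on Mest. Of the 5 genes, 4 were therefore covered, each in 1 dataset, and Snrpn was covered in neither. Nnat was chosen by its m6A levels in WT and the Mettl5-KO clones, since 1 of its sites was lower in both clones, so its values in that contrast are given as a description, with no test.

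Imprinted genes are transcribed from only one parental copy, set by DNA methylation laid down in the germline, and all of these genes are known to be expressed from the paternal copy. Most m6A in mRNA is written by the METTL3-METTL14 complex on the adenosine of DRACH motifs (A, G or U, then A or G, then A, C, and A, C or U), with many sites near stop codons and in 3′ UTRs. METTL5 is known as the enzyme that methylates an adenosine of 18S ribosomal RNA. The counts do not tell the parental copies apart.

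The study asked whether METTL5 also methylates mRNA, and used the METTL3 inhibitor STM2457 as a control of the measurement. Native polyA RNA was read on nanopores, and m6A was called on each read. The METTL3 dataset held 1 DMSO library (0.025% v/v) and 1 STM2457 library (30 μM for 48 h), both from E14 mESCs labelled WT that, per the study's methods, carry a fluorescent reporter of the 2C state, a Zscan4 reporter, a doxycycline-driven APOBEC1-YTH fusion and an FKBP12 degron knocked into both copies of Mettl3, with neither the fusion nor the degron induced. The Mettl5 dataset held 1 untreated WT library and 1 library each of the Mettl5-KO clones #1 and #2, which both share this WT, and the datasets were different batches in the labels. Cells were grown in serum and LIF, with 2i for maintenance. The level of a position is the share of valid calls that were m6A, and its interval is the exact binomial (Clopper-Pearson) interval of 95%, which covers counting error only.

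Libraries held between 17484744 and 69899568 valid calls on exons, with a median of 45 to 64 calls per position. The tables list only positions with at least 25 calls in every library of a dataset, so a gene without positions is not shown to be off. Exons of Mettl5 and Mettl3 themselves were not covered. At the ribosomal RNA copy in Gm42418, the position chr17:39848182 was at 85.2% in WT and at 25.6% and 25.1% in the clones, on 5948, 215 and 207 calls. Of 11 embryonic stem cell markers, 9 were covered in the METTL3 dataset and 7 in the Mettl5 dataset. Of 7 neural markers, Tubb3 and Stmn2 were covered in the METTL3 dataset and none in the Mettl5 dataset, the one that covers Nnat. No endoderm or mesoderm marker was covered, and of 5 trophoblast markers only Krt18 was, in the Mettl5 dataset.

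The gene Nnat (ENSMUSG00000067786.16, chr2:157560078-157562522, plus strand) encodes neuronatin, a small membrane protein of the endoplasmic reticulum that is abundant in developing neurons. All its covered positions lay in exon 3, the last of the 3 exons of Nnat-202, from 157561548 to 157562499, with 16 in coding sequence and 177 in the 3′ UTR. An m6A site was defined as an exonic position with more than 25 valid calls in every library of its dataset that reached 25% in 1 of them or more. More than 25 valid calls in every library were found at 181 of the 193 Nnat positions, 111 of 132 on Peg10, 626 of 627 on Impact and all 425 on Mest. Nnat had 3 m6A sites, all in the 3′ UTR, 299, 377 and 453 nt after the stop codon. They are shown with the positions 495 and 660 nt after the stop. Of 20 Nnat positions with no m6A call in WT and m6A calls in both clones, these were the 2 that reached 10% in a clone. Capitals mark a DRACH motif, or the called adenosine alone where there is none. The sequences are the mm10 plus strand, 5′ to 3′, read from GENCODE M21 transcripts.
Nnat +299 (chr2:157561933): tctgatctGGACCaagtcgga
Nnat +377 (chr2:157562011): agcagaatGGACAttctgaca
Nnat +453 (chr2:157562087): gcatggggggAgtggagggcg
Nnat +495 (chr2:157562129): taagaaaactAgtggggcccc
Nnat +660 (chr2:157562294): cacgttctctAacccccggcc
The first pair is in DRACH motifs and the other 3 are not. DRACH motifs made up 6.74% of the Nnat positions, against 8.35% of the exonic positions of the dataset with a sequence.

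The main m6A site of Nnat was the GGACA motif at +377. In WT, 27 of 38 valid calls there were m6A (71.1%, 54.1 to 84.6). In clone #1 it was 30 of 40 (75%, 58.8 to 87.3), and in clone #2 it was 34 of 46 (73.9%, 58.9 to 85.7). All 3 intervals overlap over most of their length. This position alone held 55.1% of the m6A calls on DRACH motifs of Nnat in WT, and 68.2% and 69.4% in the clones.

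The GGACC motif at +299 had 10 of 39 calls in WT (25.6%, 13 to 42.1), 6 of 41 in clone #1 (14.6%, 5.57 to 29.2) and 4 of 42 in clone #2 (9.52%, 2.66 to 22.6). Both clones were below WT, with overlapping intervals, and the position reached the 25% of a site in WT alone. The log2 fold changes (log2FC) of the levels were -0.81 in clone #1 and -1.43 in clone #2, both outside the threshold of -1.5 in both clones by which decreased sites were chosen, and clone #2 was the nearer.

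The position +453, outside DRACH, was inside that threshold. It had 9 of 34 calls in WT (26.5%, 12.9 to 44.4), 1 of 38 in clone #1 (2.63%, 0.0666 to 13.8) and 0 of 34 in clone #2. A count of 0 of 34 allows a level of up to 8.82%, taking 3 counts of the total as the limit for a count of 0 throughout, and its exact interval ended at 10.3%. Both clones were below WT, and the interval of clone #1 reached above the lower end of that of WT. Of the 3 Nnat sites this was the 1 that passed the threshold, and among all 1886 sites of the dataset the share was 0.318%. Since the rule used this contrast, nothing is read from that count. The share of failed calls at this position, those below the confidence filter and left out of the level, was 12.8% in WT, and 7.32% and 17.1% in clones #1 and #2.

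**Figure D1:**
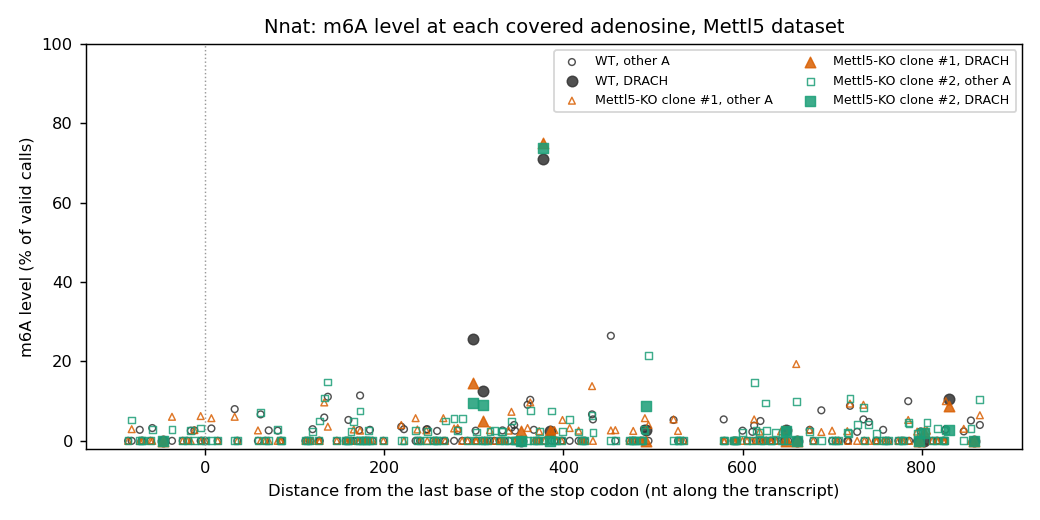
m6A level (% of valid calls) of every covered Nnat adenosine against its distance from the stop codon in nt, with WT as circles, clone #1 as triangles and clone #2 as squares, filled for DRACH motifs and open for other adenosines. The DRACH position at +377 sits at 71.1 to 75% in the 3 libraries, and no other Nnat position passes 26.5%.

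The positions +495 and +660 were picked as those with no m6A call in WT, m6A calls in both clones and 10% or more in a clone. At +495 the level was 0% in WT (0 of 30, which allows up to 10% by 3 counts and 11.6% by the exact interval), 4% in clone #1 (1 of 25) and 21.4% in clone #2 (6 of 28). At +660 it was 0% in WT (0 of 35, which allows up to 8.57% by 3 counts and 10% by the exact interval), 19.4% in clone #1 (6 of 31) and 10% in clone #2 (4 of 40). That both clones were above WT at both positions follows from this choice. The clones differed from each other by 17.4 percentage points at +495, where the 25 calls of clone #1 were not above the limit set for a site. Failed calls made up 25%, 40.5% and 41.7% of the calls in these libraries at +495, and 22.2%, 31.1% and 24.5% at +660. The part of failed calls in these differences was not tested.

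**Figure D2:**
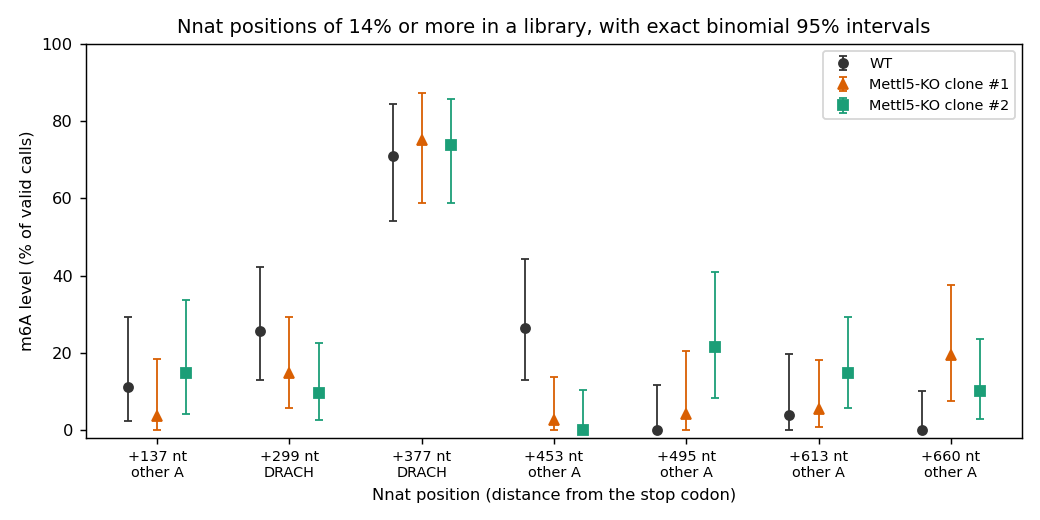
m6A level (% of valid calls) of the 7 Nnat positions that reached 14% or more in a library, ordered by distance from the stop codon, with exact binomial 95% intervals as bars. WT is highest at +299 and +453 and lowest at +495, +613 and +660, while at +377 the 3 libraries lie between 71.1 and 75%.

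Over all 193 Nnat positions, both clones were below WT at 39 and above it at 27, and 83 had no m6A call in any library. Both clones were below WT at 112 and above it at 61 of 627 Impact positions, and at 16 and 4 of 132 Peg10 positions. The shares over all exonic positions were not counted, and nothing is read from these counts. In 1 library or more, 10% was reached at 17 Nnat positions, 4 of them in DRACH motifs. The other 2 of those DRACH positions were +310, with 12.5% in WT, 5% in clone #1 and 9.09% in clone #2, and +831, with 10.5%, 8.82% and 2.78%. Both reached 10% in WT alone, so that WT was highest follows from this limit. They had 34 to 44 calls. At the 13 DRACH positions, both clones were below WT at 5 and above it at 2. Among all DRACH positions of the dataset, 21.7% were below WT in both clones and 19.8% above.

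Summed over its 13 DRACH positions, Nnat had 49 m6A calls of 515 in WT (9.51%), 44 of 519 in clone #1 (8.48%) and 49 of 575 in clone #2 (8.52%). Clones minus WT gave -1.04 and -0.993 percentage points. The Nnat level was above the median gene of each library, which over 823 genes was 4.04% in the WT library and 4.48% and 4.49% in the clones. These were genes with at least 5 DRACH positions. Nnat stood at percentile 74.8 of them in WT and at percentiles 69.9 and 69.3 in the clones. Outside DRACH the summed level of Nnat was 1.36% in the WT library and 1.22% and 1.5% in the clones.

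The mean over the 3 Nnat sites, the quantity that the study calls the m6A load, was 41.1% in the WT library, against 30.8% in clone #1 and 27.8% in clone #2. The study reported a decrease of the load for Smc4 alone. The Nnat sites +299 and +453 reached 25% in WT alone, and +453 was the site by which Nnat was chosen. Both favour a lower mean in the clones, so nothing is read from this difference in the mean. By this mean in the 3 libraries, the genes most like Nnat among 254 genes with at least 3 sites were Gm42418, with 39.7%, 28.3% and 25.3%, Elavl1, with 35.0%, 29.9% and 30.3%, and 4930594C11Rik, with 34.9%, 34.5% and 30.5%. Their distances to Nnat (Euclidean, in percentage points) were 3.76, 6.57 and 7.73. The Gm42418 values include sites of the ribosomal RNA copy. The likeness rests on the contrast by which Nnat was chosen, so it is a description and nothing is read from it.

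**Figure D3:**
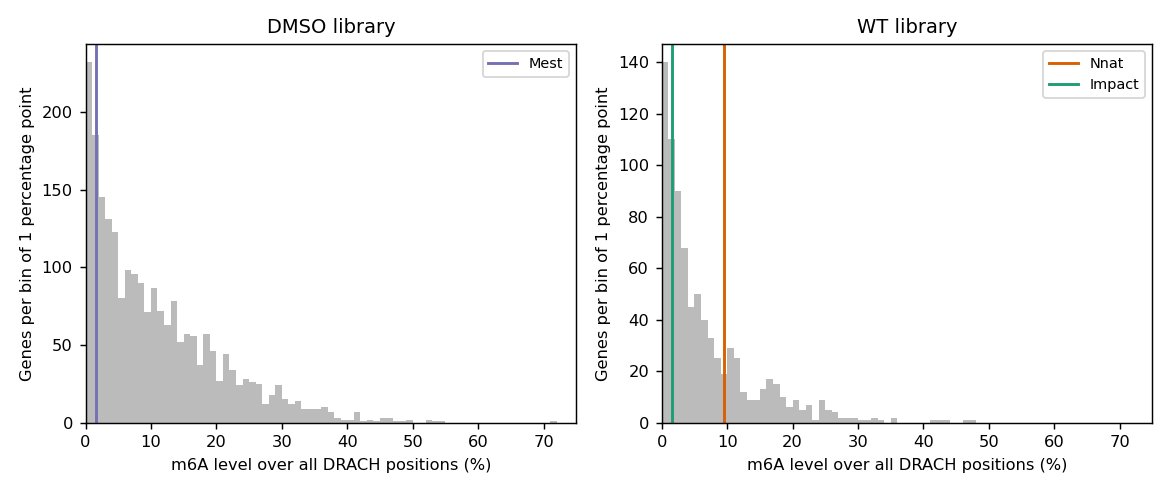
Number of genes per bin of 1 percentage point of the m6A level summed over all DRACH positions of a gene (%), for the DMSO library on the left and the WT library on the right, with vertical lines at Mest, Nnat and Impact. Mest at 1.67% and Impact at 1.6% stand near the lower end, and Nnat at 9.51% stands in the upper part of the range.

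The gene Impact (ENSMUSG00000024423.6, chr18:12955852-12992950, plus strand) encodes a protein that restrains the kinase GCN2, a sensor of amino acid shortage. Its covered positions lay in exon 11, the last exon of Impact-201, with 32 in coding sequence and 595 in the 3′ UTR. None of its 38 DRACH positions reached 25% in a library, and the highest was 12.5%, at +209 in clone #1. At that position WT had 3.85% and clone #2 had 1.85%. The highest DRACH level of a gene in any of the 3 libraries had a median of 33.9% over the 823 genes, and 57.8% of the genes reached 25%. Summed over its DRACH positions, Impact had 1.6% in WT (32 of 2000), 1.64% in clone #1 (28 of 1707) and 1.47% in clone #2 (31 of 2102). These levels stood between percentiles 23.8 and 25.6 of the genes.

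Impact had 4 m6A sites, all outside DRACH and all in the 3′ UTR. At +437 the level was 26.9% in WT (14 of 52), 29.7% in clone #1 (11 of 37) and 25% in clone #2 (13 of 52). At +66 it was 16.2%, 20.7% and 29.5% in the same order. At +1311 it was 11.9%, 6.06% and 28.9%, so that WT lay between the clones. At +1576 it was 25.5%, 15.4% and 9.09%, with both clones below WT. None of the 4 was called, that is, at an adjusted p below 0.05 in both clones in the same direction (Fisher's exact test, two-sided, Benjamini-Hochberg over all 1886 sites), and none had an unadjusted p below 0.05 in either clone. The lowest adjusted p was 0.63, for +1576 in clone #2. Among all sites, 0.265% were called lower, 5 in number with 4 on Gm42418 and 1 on Tdgf1, and 0.0% higher, while the unadjusted p was below 0.05 in both clones at 10 sites in the first direction and 36 in the second. Of 29 Impact positions of 10% or more in a library, 2 were lower and 2 higher than WT in a clone at an unadjusted p below 0.05, and none was called. The share of all positions at this unadjusted limit was not counted, so nothing is read from these counts. An example of each, chosen after the values were seen, is +1922 and +2016. The first reached 10% in WT alone and the second in clone #1 alone, which favours a difference. The position +1922 had 15.4% in WT (8 of 52), 2.33% in clone #1 (1 of 43) and 1.82% in clone #2 (1 of 55). At +2016 the level was 0% in WT (0 of 59, which allows up to 5.08% by 3 counts), 12.2% in clone #1 (6 of 49) and 2.08% in clone #2 (1 of 48). Over all positions of 10% or more, the adjusted p was 0.83 and 0.67 for +1922 and 0.81 and 0.99 for +2016 by Fisher's exact test, and 0.0595% of those positions were called lower and 0.0% higher. None of the 38 Impact DRACH positions had an unadjusted p below 0.05 in either clone, and over all DRACH positions 0.00654% were called lower in both clones and 0.0% higher.

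The 4 Impact sites also differed in failed calls. Failed calls were between 1.89% and 5.13% of the calls at +437, between 15.4% and 27.5% at +66, between 19.6% and 34% at +1311 and between 17.5% and 29% at +1576. At +437, the site with the fewest failed calls, the 3 libraries were closest to each other. Of the 4 sites, +437 alone reached the level limit of a site in all 3 libraries. The sites +66 and +1311 reached it in clone #2 alone and +1576 in WT alone, which favours a wider spread there. Nothing is therefore read from the closeness at +437, and the part of failed calls in it was not tested. The clones differed from each other by 10 percentage points or more at 10 of 627 Impact positions (1.59%) and 2 of 193 Nnat positions (1.04%), against 0.92% of all exonic positions.

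**Figure D4:**
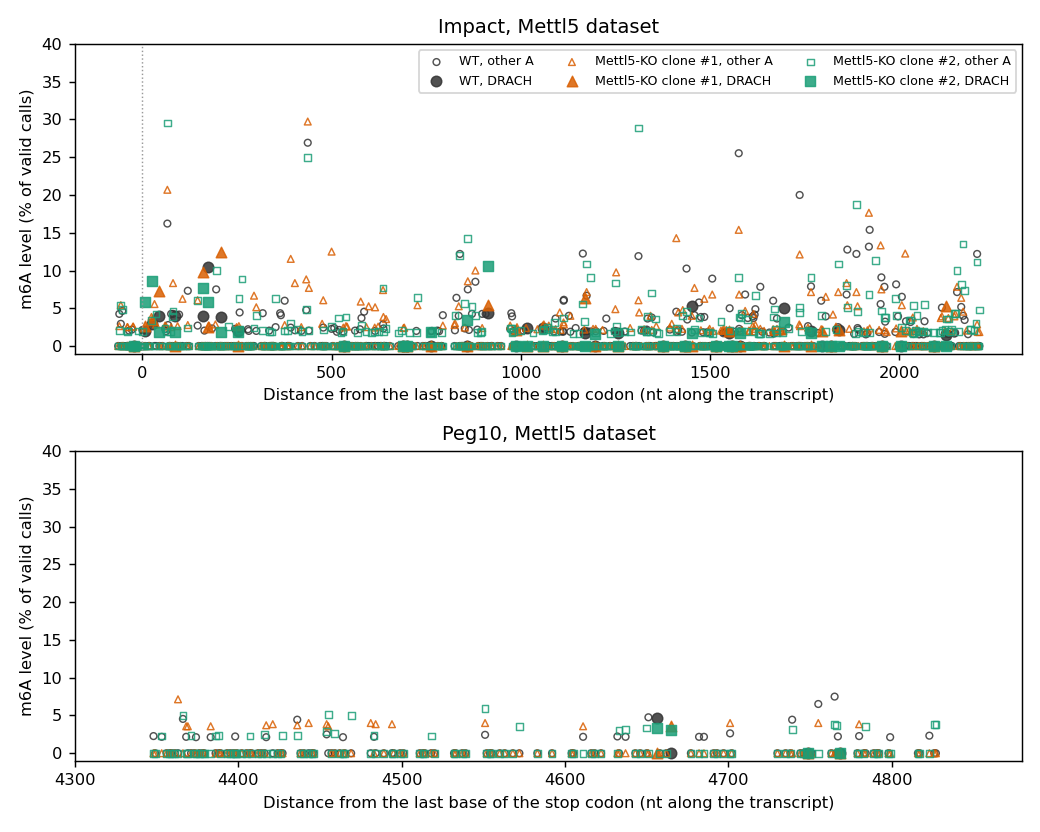
m6A level (% of valid calls) of every covered adenosine of Impact (top) and Peg10 (bottom) against the distance from the stop codon in nt, in WT (circles), clone #1 (triangles) and clone #2 (squares), filled for DRACH motifs. The Impact positions above 25% are open symbols, and no Peg10 position passes 7.50%.

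The gene Peg10 (ENSMUSG00000092035.8, chr6:4747306-4760517, plus strand) derives from a retrotransposon and is needed for placenta formation. Only the far 3′ UTR in exon 2 of Peg10-202 was covered, from 4759699 to 4760178, between 339 and 818 nt from the transcript's 3′ end. Of the 3 genes of the Mettl5 dataset it had the lowest level outside DRACH. No position of 132 had a level above 7.50%, and 79 had no m6A call in any library. It held 4 DRACH positions, 3.03% of its positions, which summed to 2 m6A calls of 177 in WT (1.13%), 1 of 109 in clone #1 (0.917%) and 2 of 120 in clone #2 (1.67%). None of the 4 had an unadjusted p below 0.05 in either clone by Fisher's exact test. With at most 2 m6A calls in a library, the test had almost no room to reach this limit, so nothing is read from it. Outside DRACH the level was 0.51% in the WT library and 0.485% and 0.534% in the clones, at or below percentile 5.14 of 934 genes.

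Failed calls were few on Peg10, with a median of 2.65% over positions outside DRACH, against 5.93% over all genes at positions below 10%. At Nnat positions of 10% or more outside DRACH the median was 22.6%, and at those of Impact it was 22%, against 19.7% over all genes. In DRACH motifs of 10% or more it was 3.87% for Nnat and 4.11% for Impact, against 3.30% over all genes.

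The gene Mest (ENSMUSG00000051855.15, chr6:30723547-30748465, plus strand) encodes an enzyme-like protein of the alpha/beta hydrolase fold and is expressed in mesoderm of the embryo. It was covered in the METTL3 dataset alone, in exon 12, the last exon of Mest-211, from 30747053 to 30748462, with 29 positions in coding sequence and 396 in the 3′ UTR. Its highest level was 22.8%, so it had no m6A site by the definition above. It had 42 DRACH positions, 9.88% of its positions. The position with the highest DRACH level and the 2 outside DRACH with the highest levels in DMSO are shown as above (mm10, plus strand, 5′ to 3′).
Mest +1095 (chr6:30748264): gtttccagAGACAttaagaac
Mest +604 (chr6:30747773): ctggggaagtAgctcagtggt
Mest +638 (chr6:30747807): agcatgttaaAgcccttgggt

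After STM2457, m6A on the DRACH motifs of Mest fell at 3 of the 42 positions, on a background of 19.3% of 38760 DRACH positions called lower (Fisher's exact test, two-sided, adjusted p below 0.05 over all DRACH positions). With 1 library each, the test compares the DMSO and the STM2457 library, not the conditions. At the AGACA motif at +1095, 25 of 126 calls were m6A in DMSO (19.8%, 13.3 to 27.9) and 4 of 126 in STM2457 (3.17%, 0.872 to 7.93), with an adjusted p of 3.4e-04 by Fisher's exact test. At +163 the level fell from 7.19% (11 of 153) to 0 of 125, which allows up to 2.4% by 3 counts and 2.91% by the exact interval, with an adjusted p of 0.0083. At +869 it fell from 7.50% (9 of 120) to 0 of 118, which allows up to 2.54% by 3 counts and 3.08% by the exact interval, with an adjusted p of 0.019. At +398 it was 9.49% in DMSO (13 of 137) and 1.79% in STM2457 (2 of 112), with an adjusted p of 0.069, which did not pass. These 4 were the Mest DRACH positions above 5% in DMSO.

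The 4 positions held 63.0% of the m6A calls on the DRACH motifs of Mest in DMSO. They were picked by their DMSO level, which favours a lower level in the other library, so no pooled comparison over them is given. The other DRACH positions had at most 4.38% in DMSO and 2.44% in STM2457. Of all 42, the STM2457 level was the lower one at 18 and the higher one at 7, and 17 had no m6A call in either library, while 56.8% of all DRACH positions were lower in STM2457. No Mest DRACH position was called higher, and among all DRACH positions 0.00258% were.

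Summed over its DRACH positions, Mest had 1.67% in DMSO (92 of 5521) and 0.474% in STM2457 (23 of 4852), a relative decrease of 71.6%. The median relative decrease over 2236 genes was 79.5%, with quartiles of 71.0% and 85.7%. Mest thus started low, at percentile 16.1 of genes in DMSO, where the median was 8.39%, and its relative decrease lay near the lower quartile.

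Outside DRACH, the Mest positions with the highest levels did not pass the test. At +604 the level was 18.2% in DMSO (16 of 88) and 20.3% in STM2457 (15 of 74). At +638 it was 22.8% (21 of 92) and 14.1% (10 of 71), and at +723 it was 15.3% and 13.8%. At +502 it was 14.4% and 6.90%, and at +143 it was 3.39% and 10.9%. Over all positions of 10% or more, the adjusted p of these 5 ranged from 0.061 to 0.89 by Fisher's exact test, while 53.3% of the 15231 positions were called lower and 0.657% higher. Those 15231 were 9015 DRACH positions and 6216 outside DRACH. The share called lower outside DRACH alone was not counted, so these 5 are not set against the 53.3%. A relative decrease below 25% was found at 34.4% of the 4493 positions outside DRACH with 10% or more in DMSO, and at 1.16% of the 9002 DRACH positions. Failed calls were between 22.1% and 38.0% of the calls at these 5 Mest positions over both libraries, and 0.787% at +1095. The part of failed calls in the levels was not tested.

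**Figure D5:**
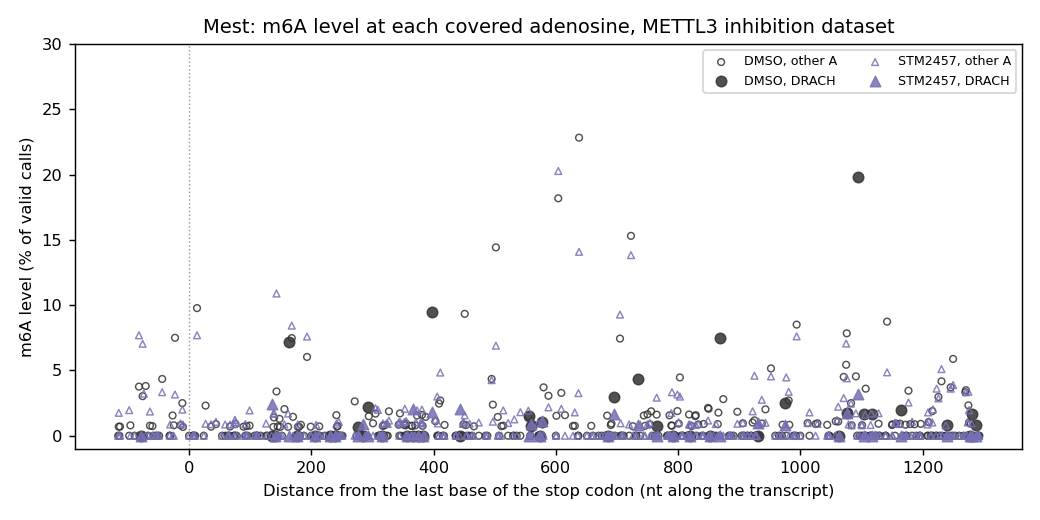
m6A level (% of valid calls) of every covered Mest adenosine against the distance from the stop codon in nt, in DMSO (circles) and STM2457 (triangles), filled for DRACH motifs. The DRACH position at +1095 drops from 19.8% to 3.17%, while 5 open positions between +500 and +730 stay above 5% in both libraries.

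Read depth, the median number of valid calls over the positions of a gene, was 38 for Nnat in WT, and 38 and 42 in clones #1 and #2. Scaled to the total valid calls on exons this was 1.19-fold higher than WT in both clones, against 1.05-fold and 1.08-fold for the median gene. Peg10 had 46 in WT, 27 in clone #1 and 40 in clone #2, or 0.696-fold and 0.938-fold of WT after scaling, so the clones differed from each other. Its coverage in clone #1 ran from 25 to 28, close to the limit of listing. Impact had 51, 43 and 53, or 0.999-fold and 1.12-fold of WT. Mest had 122 in DMSO and 112 in STM2457, which was 1.22-fold after scaling, against 1.08-fold for the median gene. None of these reached a change of 2-fold. Over all genes, 3.67% were that much higher and 0.587% that much lower after STM2457, 1.01% and 1.01% in clone #1 and 3.23% and 4.89% in clone #2. In such counts, fewer cells that transcribe a gene and less RNA per cell cannot be told apart.

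The split of the genes between datasets was set beside genes of like depth. Of 252 genes with a WT depth from 38 to 51, the range of Nnat, Peg10 and Impact, 231 were also covered in the METTL3 dataset (91.7%). Of 333 genes with a DMSO depth within about 25% of that of Mest, 198 were also covered in the Mettl5 dataset (59.5%). Nnat, Peg10 and Impact were not covered in the METTL3 dataset, nor Mest in the Mettl5 dataset. Cell line, batch, culture, treatment (DMSO or STM2457) and Mettl5 knockout differ between the datasets together, and their parts cannot be told apart.

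Of 79 other imprinted genes, 12 were covered in the METTL3 dataset (H13, Mcts2, Gnas, Cd81, Tssc4, Phlda2, Nap1l4, Dhcr7, Gab1, Commd1, Slc38a4 and Bcl2l1) and 4 in the Mettl5 dataset (Gnas, Cd81, Phlda2 and Gab1). Whether these genes are imprinted in mESCs was not tested. In the METTL3 dataset, 9 of the 12 covered genes had 29 m6A sites, 24 of them in DRACH motifs. After STM2457, 26 of the 29 were called lower and 0 higher by Fisher's exact test, against 91.5% and 0.323% of all 6201 sites. The median of their levels was 41.4% in DMSO against 7.69% in STM2457, and the median relative decrease was 84.1%, against 79.9% over all sites. The 3 sites that were not called, 2 on Dhcr7 and 1 on Gab1, were chosen for mention after their values were seen and lay outside DRACH. In the Mettl5 dataset these genes had 1 site, on Gnas, at 26.1% in WT, 16.4% in clone #1 and 23.5% in clone #2, which was not called.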

How the data were processed

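Per the study's methods and the labels, the authors split pooled direct RNA reads by WarpDemuX barcode, ran dorado 1.4.0 for bases, modifications and the alignment to mm10, and counted calls per position with modkit pileup 0.4.4. The deposited values are counts of valid, m6A, unmodified, failed and other calls, not normalized, and the deposited percent is the share of m6A among valid calls. Reads start at the poly(A) tail, so covered positions lie mostly near 3′ ends.

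From these counts, levels, exact intervals and Fisher's exact tests per site were computed (Python 3.11.15, numpy 2.4.6, pandas 2.3.3, scipy 1.17.1, matplotlib 3.10.9), over all sites of a dataset, with Benjamini-Hochberg adjustment. Exons were those of GENCODE M21, whereas the authors took UCSC RefSeq exons. The transcript sequence held an A at 99.8% of called positions. The test code was run on simulated binomial counts, and no result rests on that run. With 1 library per condition, p-values cover counting error between libraries and not the spread between cultures, and the clones are the only replicates.

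The members and the gene lists were chosen with earlier results of these data known. Genes were named by a rule: all members, other imprinted genes by counts with values where a site changed in both clones or kept its level after STM2457, and the 3 genes most like Nnat. Alternatives changed the coverage and level limits, the motif, the denominator, the exon set, the clone used and the scaling of depth.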

Additional observations from a re-analysis of the deposited data

How the results depend on the processing

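Of 83 alternative values, 57 moved by less than the spread between clones or the counting interval (by no more than 1.5 times for a count). For the gene levels of Nnat and Impact, leaving out 1 clone could not move the value past that spread. Those values are among the 57, and nothing is read from them. The number of positions tested changes with each limit. After STM2457, 5673 of 6201 sites were called lower. This became 2551 of 2686 with more than 50 valid calls and 3217 of 3294 at 50% or more. The number called higher, 20 of the 6201, became 8 and 2 under these limits and 100 of 15231 at 10% or more. It was 1 of 38760 over every DRACH position, 0 of 5493 over DRACH sites and 2 of 5699 with failed calls in the denominator. Mest had 0 m6A sites to test, and calls on it were 1 of 6 at 10% or more and 3 of 42 over every DRACH position. For both clones, 5 of 1886 sites were called lower. This became 2 of 819 at 50% or more, 2 of 1488 over DRACH sites and 1 of 15295 over every DRACH position. It was 2 of 1579 with failed calls in the denominator, 1 of 1859 on RefSeq-linked exons and 8 of 1886 with the clones' calls summed. The 0 sites higher became 1 of 461 with more than 50 valid calls and 5 of 1886 with the calls summed. Without 1 clone in turn, 5 to 6 were lower and 5 higher under either. No alternative called a site on Impact or Peg10. With more than 50 valid calls, at 50% or more and over DRACH sites, 0 of their positions were left to test, so no call was possible. Peg10 was tested only over every DRACH position.

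The Nnat DRACH level of the clones minus WT, -1.02 percentage points, was -11.77 as a mean over m6A sites, -1.40 as a mean over DRACH positions and -0.917 with failed calls in the denominator. The mean over m6A sites includes +299 and +453, which reached 25% in WT alone. For Impact, -0.0425 became 0.405 over m6A sites. Read depth of Nnat, 1.19-fold, was 1.24-fold by highest coverage and 1.11-fold scaled by the median gene. For the other alternatives of the member genes the values moved by less than the spread, which was certain where 1 clone was left out of a gene level. No paired analysis was possible because each dataset holds 1 library per control and the clones share it. The number of calls per position, 25 to 66 on Nnat, Peg10 and Impact, limits what a single position can show.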

Other observations

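Calls of other modifications, which the caller reports as separate classes beside m6A, were rare on the covered genes. They made up 0.649% of the valid calls on Mest in DMSO and 0.536% in STM2457, and on Nnat 0.621% in WT, 0.66% in clone #1 and 0.576% in clone #2. On Peg10 the shares were 0.25%, 0.426% and 0.446%, and on Impact 0.716%, 0.624% and 0.679%. The highest share at a Mest position was 25.9% in DMSO, 580 nt after the stop codon. It rests on 7 of only 27 valid calls, and 78.2% of the calls there failed.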
